A study of Homo sapiens with 24 samples.

Results

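Inflammatory cytokine and chemokine genes of the kind that a senescent or stressed cell secretes were described in U251 cells, a human glioblastoma (GBM) line, exposed to G-1, an agonist of the G-protein-coupled estrogen receptor GPER. The members were 10 genes, CSF2, IL6, LIF, IL11, IL1B, CXCL1, CXCL2, CXCL3, CXCL8 and CCL2, out of 24817 genes with a symbol on the array. They were found through the RefSeq transcript that each probe names, which gave 14 probes, and each probe was followed over 6 groups with the scanner flag for signal well above background. The genes were chosen by name with earlier results of these 24 arrays in view, and their fold changes against DMSO count as used in the choice, since which values decided it is not recorded. Their levels, differences and adjusted p-values are therefore a description of these arrays, and nothing is supported by how many of the 10 passed a test.

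U251 cells were deprived of steroid hormones in medium with charcoal-stripped serum and then received the vehicle DMSO (0.1% in the labels), G-1 at its IC50 dose (G-1 IC50) or G-1 at 1 µM, for 24 h or 72 h. Each of these 6 groups had 4 biological replicates, called independent in the labels, and each replicate was hybridized to 1 one-colour Agilent array. All groups share the same cell line and the same steroid deprivation, so there is no untreated culture in full serum. One entry of the sample labels gives the other duration for 8 arrays, those titled G-1 1 µM 72 h and those titled G-1 IC50 24 h, and the titles were followed.

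Levels are log2 signals relative to the 75th percentile of the same array, so 0 is the level that 1 in 4 probes exceeds and a step of 1 is a factor of 2. They can be compared between groups for 1 probe, but not between probes. A difference passed the test when its adjusted p from limma was under 0.05. The fit took in the 22970 probes for which some group had all 4 of its arrays well above background. Errors are SD with n = 4 for levels and standard errors (SE) for differences. All 8 G-1 1 µM arrays lay on 1 slide that was scanned in a second session, while the DMSO and G-1 IC50 arrays shared the other 2 slides. A comparison of G-1 1 µM with DMSO or with G-1 IC50 at 1 duration is one in which treatment and slide cannot be told apart, whereas G-1 1 µM 72 h against G-1 1 µM 24 h lay within 1 slide. Spots well above background made up 41.1% to 44.5% on the 16 arrays scanned first and 38.0% to 40.7% on the 8 scanned later. Replicates correlated at 0.990 to 0.996.

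The proteins made from these genes act outside the cell. CSF2 encodes GM-CSF, a growth factor for macrophages and granulocytes. IL6, LIF and IL11 belong to the IL-6 family, whose receptors all signal through the shared subunit gp130 (IL6ST) to JAK kinases and STAT3. IL1B encodes a precursor that caspase-1 cuts into active interleukin-1 beta, and this cytokine switches on NF-kappaB in the cells that receive it. CXCL1, CXCL2, CXCL3 and CXCL8 are chemokines that attract neutrophils through CXCR2 (CXCL8 also through CXCR1), and CCL2 attracts monocytes through CCR2. Transcription of many of these genes depends on NF-kappaB and AP-1, and their mRNAs carry AU-rich elements that make them short-lived. In glioblastoma these factors are known for recruiting myeloid cells and for feeding back on the tumor cells themselves.

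RefSeq promoter sequence was at hand for 8 of the 10 genes, and LIF and CCL2 had no entry. Motifs were searched on both strands of the 250 bases before the transcription start. The letters GGNNTTTCC, which overlap the longer NF-kappaB consensus, were found for CXCL1, CXCL2, CXCL3, CXCL8 and IL6, and in 5.48% of the 35116 promoters in the table. The NF-kappaB consensus itself was found for IL6, CXCL1, CXCL2 and CXCL3, and in 9.96% of promoters. The AP-1 letters TGANTCA were found for CXCL8 and IL11, and in 6.57% of promoters. The motifs were chosen with these sequences known, so a match is a description of letters and not a site that was shown to act. The stretches around the first match are shown because they let the chemokine genes be compared base by base. They are from RefSeq, build GRCh38.p14, and read 5′ to 3′ on the strand of the gene, with the match in capitals. The first 5 hold GGNNTTTCC and the last 2 hold TGANTCA.
CXCL1 (chr4:73869289-73869348, plus strand): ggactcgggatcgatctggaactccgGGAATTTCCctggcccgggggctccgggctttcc
CXCL2 (chr4:74099239-74099298, minus strand): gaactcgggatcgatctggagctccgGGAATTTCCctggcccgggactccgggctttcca
CXCL3 (chr4:74038734-74038793, minus strand): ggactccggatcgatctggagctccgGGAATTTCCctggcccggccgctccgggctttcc
CXCL8 (chr4:73740452-73740511, plus strand): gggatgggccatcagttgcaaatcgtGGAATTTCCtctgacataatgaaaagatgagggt
IL6 (chr7:22727102-22727161, plus strand): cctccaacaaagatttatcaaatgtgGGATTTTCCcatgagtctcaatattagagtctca
CXCL8 (chr4:73740412-73740458, plus strand): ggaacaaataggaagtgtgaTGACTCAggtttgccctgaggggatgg
IL11 (chr19:55370533-55370579, minus strand): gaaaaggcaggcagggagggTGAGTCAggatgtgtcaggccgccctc

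Compared position by position without gaps, the windows of CXCL1 and CXCL3 were identical at 56 of 60 bases (93.3%), those of CXCL1 and CXCL2 at 49 (81.7%) and those of CXCL2 and CXCL3 at 48 (80%). The match began 78 bases before the start for CXCL1 and CXCL3 and 77 bases before it for CXCL2. These 3 windows also hold a second match, left in lower case near their end, which began 53 bases before the start in each. The windows of CXCL8 and IL6 were identical to those of the other genes at 20 to 25 of 60 positions, although CXCL8 holds the same 9 matched letters as CXCL1.

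CSF2, the gene of GM-CSF, was above background in the 1 µM groups alone. Its level in DMSO 24 h was -4.10, -3.99, -4.09 and -3.20 on replicates 1 to 4, and in DMSO 72 h -4.71, -4.87, -3.53 and -3.82. No DMSO array and no G-1 IC50 array was well above background, so these levels are bounds. In G-1 1 µM 24 h the level was -1.95, -2.05, -2.51 and -2.76, where the first 3 were well above background. It was 0.41, 0.29, 0.59 and 0.02 in G-1 1 µM 72 h, all 4 well above background. CSF2 entered the fit through this group alone, the one where it was highest, so its p-values in all comparisons are a description only. The groups did not overlap at either duration. The share of all probes whose 1 µM and DMSO groups do not overlap is not reported here, and 32.5% of all probes rose at 72 h. A lack of overlap, for CSF2 and for every gene below, therefore describes its arrays and does not set it apart. The measured log2 difference of G-1 1 µM from DMSO was 1.52 at 24 h (adjusted p = 0.0036, limma) and 4.56 at 72 h (adjusted p = 1.2e-09, limma). With each DMSO array set at its lowest signal well above background, CSF2 was about 2.00-fold higher at 24 h and at least 12.1-fold higher at 72 h. That lowest signal is taken over all probes of an array and is not a detection limit for each spot. Each limit, here and below, is relative to it. The 24 h value is approximate, since replicate 4 of the 1 µM arrays was itself not well above background. These limits hold for the background-subtracted signals alone, and the normexp differences fall short of them. With normexp background correction in place of the background subtraction of the scanner software, the difference was 0.47 at 24 h and 1.67 at 72 h on the log2 scale, against 1.52 and 4.56, and both still passed.

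Within the slide of the 1 µM arrays, CSF2 rose from 24 h to 72 h by a log2 difference of 2.65 ± 0.36 (adjusted p = 6.0e-06, limma), and all 4 arrays of 72 h were above all 4 of 24 h (1.30 with normexp, which passed). With each G-1 IC50 array set at its lowest signal well above background, CSF2 was about 2.24-fold higher in 1 µM at 24 h and at least 13.5-fold higher at 72 h. In G-1 IC50 itself the levels ranged from -4.80 to -3.71 at 24 h and from -5.06 to -3.40 at 72 h, inside or around the spread of DMSO.

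**Figure D1:**
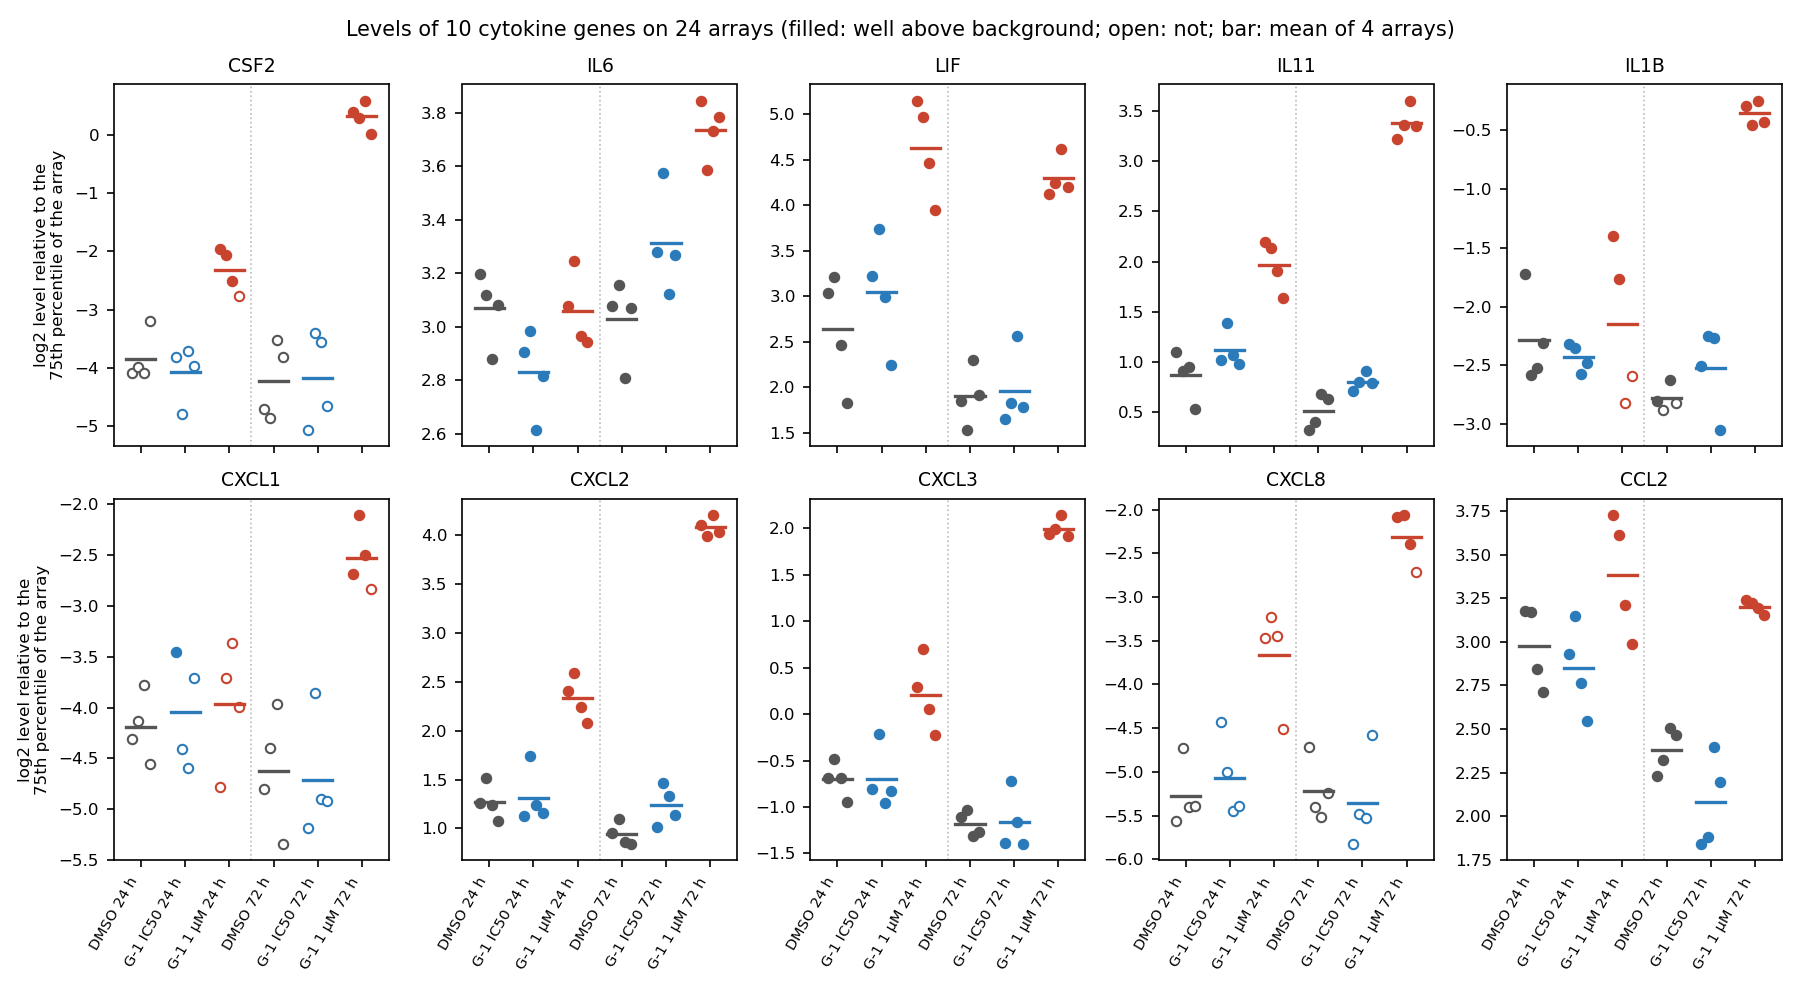
Level of each of the 10 genes (log2 relative to the 75th percentile of the array, own scale per panel) on the 4 arrays of each group, for the brightest probe of the gene. Filled points were well above background, open points were not, and bars are group means. The G-1 1 µM 72 h points of CSF2 lie between 0.02 and 0.59, above every other group, whereas LIF was already at 3.95 to 5.15 in G-1 1 µM 24 h.

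LIF, a cytokine of the IL-6 family, rose at both durations of 1 µM. Its levels were 3.04, 3.21, 2.46 and 1.83 in DMSO 24 h and 5.15, 4.97, 4.46 and 3.95 in G-1 1 µM 24 h. In DMSO 72 h they were 1.85, 1.53, 2.30 and 1.91, and in G-1 1 µM 72 h they were 4.12, 4.25, 4.62 and 4.20. The 1 µM arrays were above the DMSO arrays at both durations, with no overlap. LIF was higher by 2.00 ± 0.32 on the log2 scale at 24 h (4.00-fold, adjusted p = 1.9e-04, limma) and by 2.40 ± 0.32 at 72 h (5.27-fold, adjusted p = 1.7e-06, limma). Between 24 h and 72 h of 1 µM the difference was -0.34 with a 95% interval from -1.0 to 0.33, and the 2 effects against DMSO differed by 0.40 (adjusted p = 0.54, limma), so a change of LIF with duration was not shown.

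A second, much dimmer LIF probe was not tested, since it was well above background on only 6 of 24 arrays. Of these, 3 were G-1 1 µM 24 h, 2 were G-1 1 µM 72 h and 1 was G-1 IC50 24 h. Against DMSO arrays set at their lowest signal well above background, this probe was about 2.04-fold higher in the 1 µM group after 24 h. After 72 h it was about 1.20-fold higher. Both values are approximate, since only 3 and 2 of the 4 1 µM arrays were well above background. The direction was that of the brighter probe. The 24 h groups overlapped (lowest 1 µM level -3.55, highest DMSO level -3.48), and the 72 h groups did not.

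IL11, another cytokine that signals through gp130, was well above background on all 24 arrays and rose at both durations. Its levels were 1.10, 0.91, 0.95 and 0.53 in DMSO 24 h and 2.19, 2.13, 1.90 and 1.64 in G-1 1 µM 24 h. They were 0.32, 0.40, 0.68 and 0.63 in DMSO 72 h and 3.22, 3.36, 3.60 and 3.35 in G-1 1 µM 72 h. Neither pair of groups overlapped. The difference was 1.10 ± 0.13 at 24 h (2.14-fold, adjusted p = 1.4e-05, limma) and 2.88 ± 0.13 at 72 h (7.35-fold, adjusted p = 1.2e-12, limma). Within the 1 µM slide, IL11 was 1.42 ± 0.13 higher at 72 h than at 24 h (adjusted p = 4.5e-08, limma). In G-1 IC50 72 h its 4 levels, 0.71 to 0.91, all lay above those of DMSO 72 h, as was so for 2.39% of all probes, but the difference of 0.29 did not pass (adjusted p = 0.51, limma).

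IL6, the founding member of the family, was well above background on all 24 arrays and differed less between groups than the members described so far. It was 3.20, 3.12, 2.88 and 3.08 in DMSO 24 h and 3.08, 3.25, 2.97 and 2.94 in G-1 1 µM 24 h, which overlap. It was 3.08, 3.16, 2.81 and 3.07 in DMSO 72 h and 3.84, 3.59, 3.73 and 3.78 in G-1 1 µM 72 h, which do not. IL6 was 0.71 ± 0.11 higher in G-1 1 µM than in DMSO at 72 h (1.64-fold, adjusted p = 7.1e-06, limma), while the difference at 24 h was -0.01 with a 95% interval from -0.23 to 0.21 (adjusted p = 0.94, limma). In G-1 IC50 72 h the levels were 3.28, 3.58, 3.12 and 3.27, which overlap those of DMSO 72 h and lie below those of 1 µM, and the difference of 0.28 from DMSO did not pass (adjusted p = 0.37, limma). G-1 1 µM was 0.43 ± 0.11 above G-1 IC50 at 72 h (adjusted p = 0.0015, limma), a difference that was 0.26 and did not pass when the arrays were scaled to their 50th percentile (adjusted p = 0.091, limma).

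IL1B, the gene of pro-interleukin-1 beta, lay near the limit of detection except in G-1 1 µM 72 h. Its levels were -1.73, -2.58, -2.52 and -2.31 in DMSO 24 h and -1.40, -1.77, -2.82 and -2.59 in G-1 1 µM 24 h, where only the first 2 were well above background. They were -2.80, -2.88, -2.63 and -2.82 in DMSO 72 h, with replicates 1 and 3 well above background, and -0.29, -0.45, -0.25 and -0.43 in G-1 1 µM 72 h. The 24 h groups overlapped and the 72 h groups did not. IL1B was 2.43 ± 0.24 higher in G-1 1 µM than in DMSO at 72 h (5.38-fold, adjusted p = 3.1e-08, limma). At 24 h the difference was 0.14 with a 95% interval from -0.36 to 0.64 (adjusted p = 0.69, limma). Normexp background correction gave 0.95 at 72 h, a passing difference of under 2-fold, and at 24 h it gave 0.30, which then passed (adjusted p = 0.041, limma), as did the difference from G-1 IC50 at 24 h (0.36, adjusted p = 0.017, limma). Within the 1 µM slide IL1B rose by 1.79 ± 0.24 from 24 h to 72 h (adjusted p = 5.8e-06, limma), or by 0.60 with normexp, which also passed.

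CXCL2 and CXCL3, neutrophil chemokines of neighboring genes whose windows are shown above, moved alike. CXCL2 was 1.26, 1.51, 1.24 and 1.08 in DMSO 24 h and 2.41, 2.59, 2.24 and 2.08 in G-1 1 µM 24 h. It was 0.95, 1.10, 0.86 and 0.84 in DMSO 72 h and 4.10, 3.99, 4.20 and 4.03 in G-1 1 µM 72 h. All 1 µM arrays exceeded all DMSO arrays at both durations, a separation whose share over all probes is not reported here. CXCL2 was 1.06 ± 0.13 higher at 24 h (2.08-fold, adjusted p = 2.4e-05, limma) and 3.14 ± 0.13 higher at 72 h (8.84-fold, adjusted p = 5.5e-13, limma). Its second probe gave 1.02 and 3.35, with every array well above background.

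CXCL3 was -0.68, -0.48, -0.69 and -0.95 in DMSO 24 h and 0.29, 0.71, 0.05 and -0.22 in G-1 1 µM 24 h. It was -1.11, -1.03, -1.31 and -1.27 in DMSO 72 h and 1.94, 1.99, 2.14 and 1.91 in G-1 1 µM 72 h. Again no DMSO array reached the 1 µM arrays of its duration, although at 24 h replicate 2 of G-1 IC50 reached -0.21. CXCL3 was 0.91 ± 0.18 higher at 24 h (1.88-fold, adjusted p = 0.0011, limma) and 3.18 ± 0.18 higher at 72 h (9.04-fold, adjusted p = 1.5e-11, limma), and with normexp by 0.58 and 2.23, which both passed. From 24 h to 72 h of 1 µM, within 1 slide, CXCL2 rose by 1.75 ± 0.13 and CXCL3 by 1.79 ± 0.18 (adjusted p = 3.3e-09 and 1.4e-07, limma). Over the 24 arrays the levels of CXCL2 and CXCL3 correlated at 0.99, and their deviations from the group means at 0.93. The 2 genes are close paralogs, and whether either probe also binds the mRNA of the other was not tested.

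CXCL1 and CXCL8 have 2 probes each, and none was well above background on all 4 arrays of any group, so neither gene was tested. The brighter CXCL8 probe was -5.56, -4.73, -5.40 and -5.39 in DMSO 24 h, -4.72, -5.40, -5.52 and -5.24 in DMSO 72 h and -3.47, -3.22, -3.44 and -4.52 in G-1 1 µM 24 h, none of them well above background. In G-1 1 µM 72 h it was -2.08, -2.06, -2.39 and -2.71, with replicates 1 to 3 well above background. With each DMSO 72 h array set at its lowest signal well above background, CXCL8 was about 1.95-fold higher in G-1 1 µM 72 h by this probe. The second CXCL8 probe was well above background on 0 of 24 arrays.

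The brighter CXCL1 probe was -4.81, -4.40, -3.96 and -5.34 in DMSO 72 h, none well above background. It was -2.69, -2.11, -2.50 and -2.84 in G-1 1 µM 72 h, with replicates 1 to 3 well above background. With each DMSO 72 h array set at its lowest signal well above background, this gives a level about 1.67-fold higher in the 1 µM group. At 24 h it was well above background only on replicate 1 of G-1 IC50. The second CXCL1 probe was not well above background on any array, so the 2 probes of CXCL1, like those of CXCL8, differ in what they detect.

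**Figure D2:**
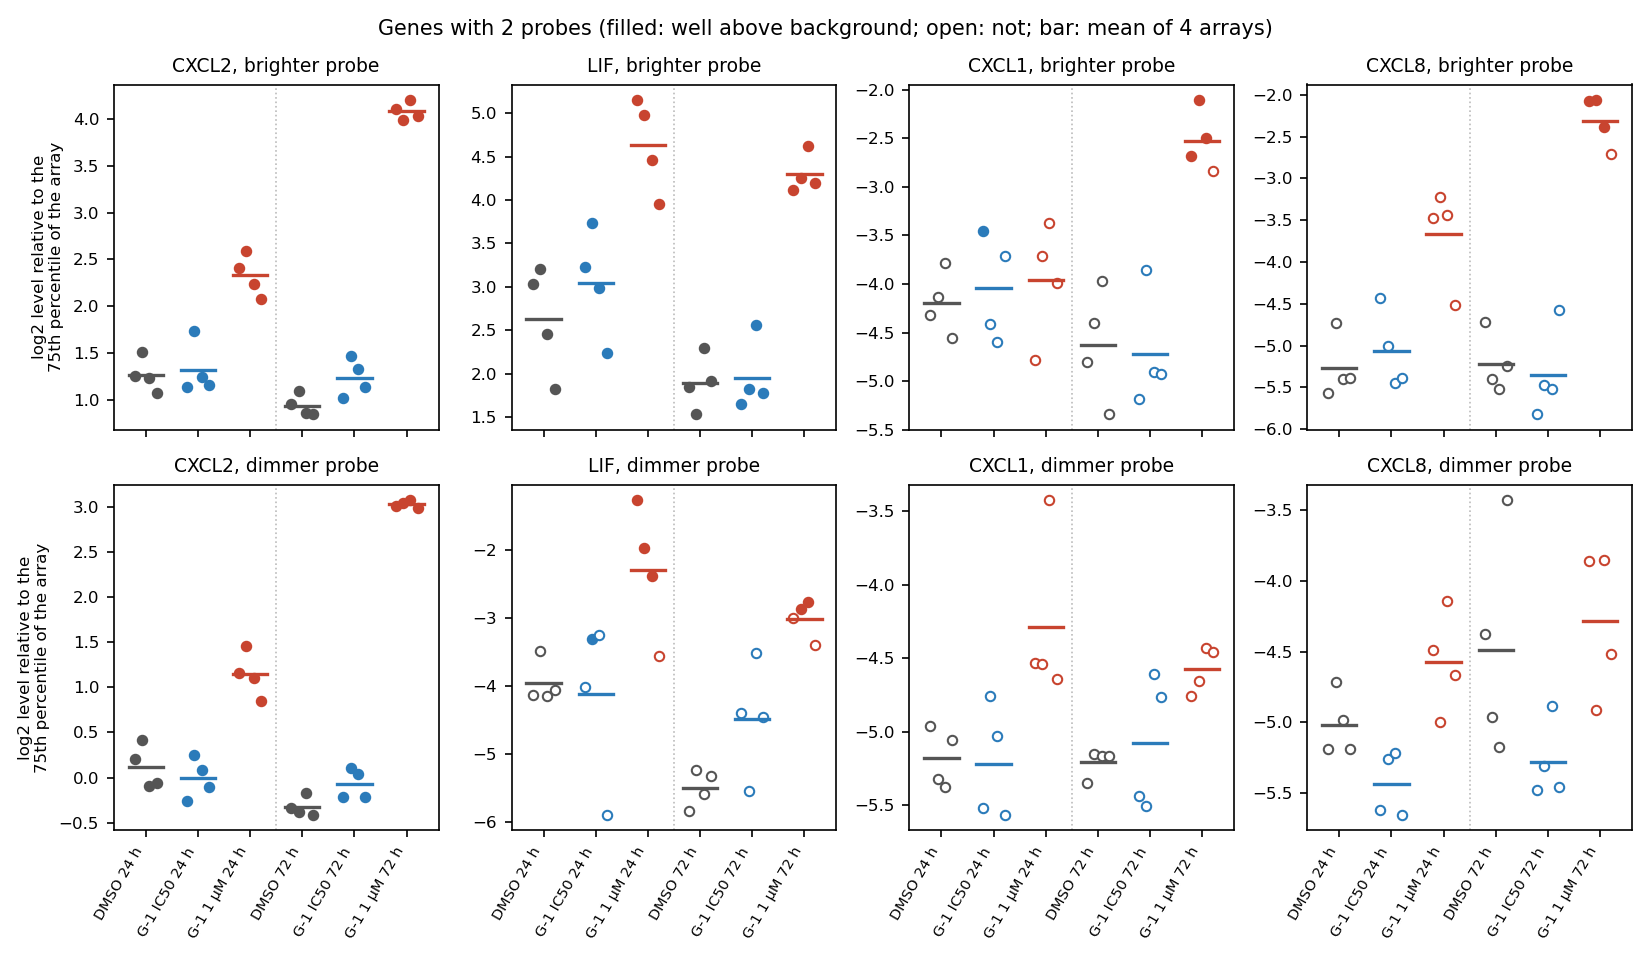
Both probes of the 4 genes with 2 probes, brighter above and dimmer below (log2 relative to the 75th percentile of the array, own scale per panel). Filled points were well above background and open points were not, and bars are means of 4 arrays. Both CXCL2 probes are highest in G-1 1 µM 72 h, with G-1 1 µM 24 h next, while the dimmer probes of CXCL1 and CXCL8 have 0 filled points.

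CCL2, the monocyte chemokine, was well above background on all 24 arrays. Its levels were 3.17, 3.17, 2.85 and 2.71 in DMSO 24 h and 3.73, 3.61, 3.21 and 2.99 in G-1 1 µM 24 h, which overlap. They were 2.23, 2.32, 2.50 and 2.47 in DMSO 72 h and 3.24, 3.22, 3.19 and 3.15 in G-1 1 µM 72 h, which do not. CCL2 was 0.82 ± 0.16 higher in G-1 1 µM than in DMSO at 72 h (1.77-fold, adjusted p = 1.4e-04, limma). At 24 h the difference was 0.41 ± 0.16 (adjusted p = 0.058, limma), and it passed when replicate numbers entered the fit as blocks, separately for 24 h and 72 h (adjusted p = 0.0030, limma). It also passed among probes detected on all 24 arrays (adjusted p = 0.048, limma), with an intensity trend (adjusted p = 0.042, limma) and without replicate 1 or 2 of DMSO 24 h or replicate 4 of G-1 1 µM 24 h.

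CCL2 also differed between the durations in DMSO alone, a comparison in which slides 1 and 2 held arrays of both groups. It was 0.59 ± 0.16 lower in DMSO 72 h than in DMSO 24 h (adjusted p = 0.047, limma), and this call was lost without any 1 of the 8 arrays other than replicate 4 of DMSO 24 h (adjusted p up to 0.14, limma). Between G-1 1 µM 72 h and G-1 1 µM 24 h the difference was -0.18 with a 95% interval from -0.51 to 0.15. The difference between the 2 effects was 0.41 and did not pass (adjusted p = 0.17, limma), although it did with those blocks (adjusted p = 0.019, limma). CCL2 was 0.54 ± 0.16 above G-1 IC50 at 24 h (adjusted p = 0.017, limma), a call lost without replicate 1 or 2 of G-1 1 µM 24 h or replicate 4 of G-1 IC50 24 h (adjusted p = 0.072, 0.060 and 0.071, limma), at the 50th percentile (0.37, adjusted p = 0.11, limma) and with arrays of that comparison alone (adjusted p = 0.077, limma). At 72 h it was 1.12 ± 0.16 above G-1 IC50.

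At the IC50 dose, 0 of the 8 tested members passed against DMSO at 24 h, where 0.192% of all probes tested passed in either direction, and 0 passed at 72 h, where 0.688% did. At an unadjusted p under 0.05, limma gave 1 member at 24 h and 3 at 72 h, beside 4.44% and 9.03% of all probes, and the methods' t-test after Benjamini-Hochberg adjustment gave 0 at both. The differences ranged from -0.24 to 0.41 at 24 h and from -0.30 to 0.30 at 72 h on the log2 scale, and the 95% intervals of all 8 lay between -0.97 and 1.08 and between -0.68 and 0.80. Within the slides that held both treatments, the differences of the members ranged from -0.51 (CCL2) to 0.94 (CSF2). Both ends were at 72 h on slide 1, with 1 G-1 IC50 array against 2 DMSO arrays. CSF2 was well above background on none of these arrays.

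At 1 µM for 24 h, 5 of the 8 tested members rose against DMSO, namely CSF2, LIF, IL11, CXCL2 and CXCL3, and 0 fell. Of all probes tested, 17.9% rose and 11.8% fell. CSF2 (by its measured 2.88-fold, with DMSO at background), LIF, IL11 and CXCL2 also passed a fold change of 2, as did 0.596% of all probes in that direction. At 72 h all 8 tested members rose, where 32.5% of all probes did, and CSF2, IL1B, LIF, IL11, CXCL2 and CXCL3 did so by over 2-fold, against 5.07% of all probes. The median difference of the 8 was 0.98 at 24 h (0.95 with CSF2 at its bound) and 2.65 at 72 h, beside 0.04 and 0.03 over the 14235 tested genes with a symbol. These counts leave out CXCL1 and CXCL8, and a gene such as CSF2 was tested only because it was detected in the 1 µM group, so the counts are no measure of the list.

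**Figure D3:**
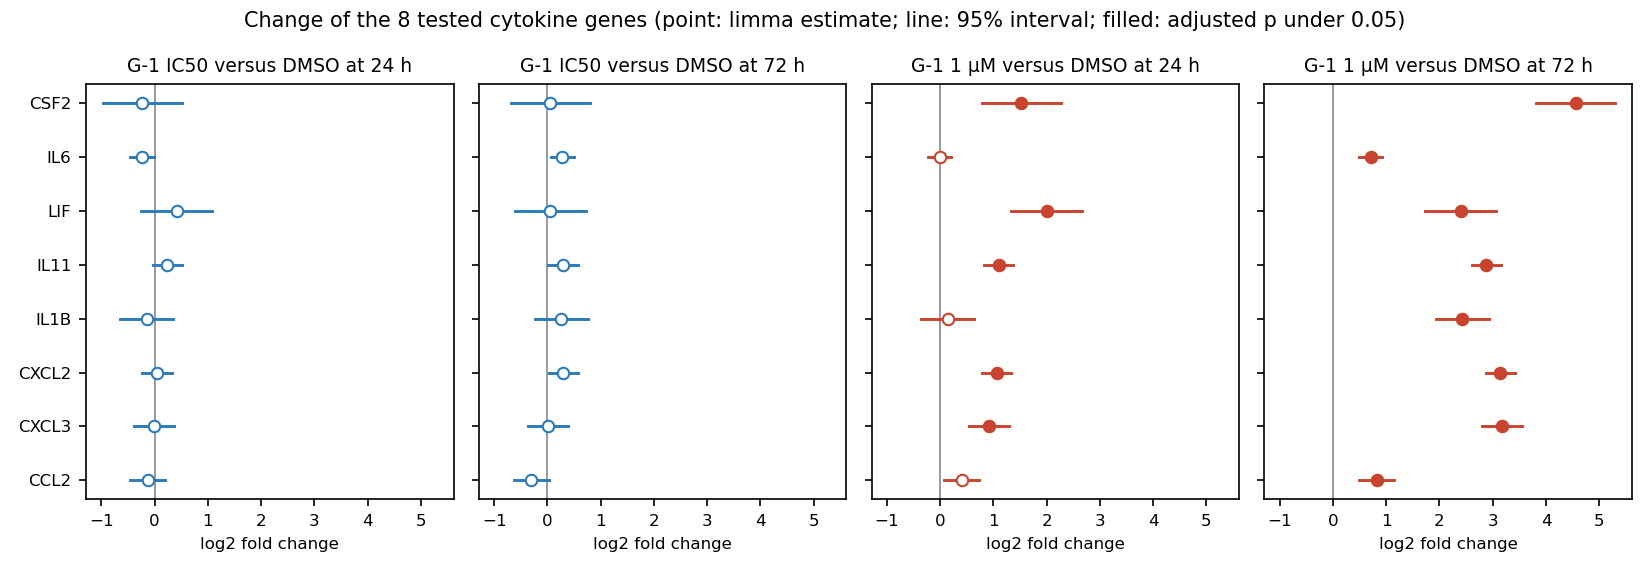
Differences of the 8 tested genes from DMSO (log2 fold change, points are limma estimates, lines 95% intervals, filled points adjusted p under 0.05) for both doses and durations. At the IC50 dose no point is filled, at 1 µM 24 h 5 are filled and at 1 µM 72 h all 8 are, from 0.71 for IL6 to 4.56 for CSF2, whose DMSO level is a bound.

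Against G-1 IC50, 6 members were higher in G-1 1 µM at 24 h (16.4% of all probes), namely CSF2, LIF, IL11, CXCL2, CXCL3 and CCL2, and 8 at 72 h (33.5%). With the methods' t-test and Benjamini-Hochberg adjustment, 3 of the 6 remained, and LIF (adjusted p = 0.052), CXCL3 (adjusted p = 0.063) and CCL2 did not pass. IL6 at 24 h, 0.23 higher in 1 µM (adjusted p = 0.12, limma), passed with a block of replicate number over all arrays (adjusted p = 0.039, limma). From 24 h to 72 h of 1 µM, the comparison within 1 slide, CSF2, IL6, IL1B, IL11, CXCL2 and CXCL3 rose (6 of 8, beside 17.8% of all probes), while LIF and CCL2 did not pass. In DMSO, 1 of 8 fell from 24 h to 72 h (1.86% of all probes), which was CCL2. The differences of all 8 were negative, from -0.74 to -0.04, and 5 had an unadjusted p under 0.05 (limma), beside 17.5% of all probes. These DMSO differences enter the interaction given next. The interaction of 1 µM with duration, the difference of the 2 effects against DMSO, passed and was positive for 6 of 8 (15.1% of all probes). It was 3.04 ± 0.50 for CSF2, 0.72 ± 0.15 for IL6, 2.29 ± 0.34 for IL1B, 1.78 ± 0.19 for IL11, 2.09 ± 0.19 for CXCL2 and 2.27 ± 0.26 for CXCL3. The value for CSF2 rests on DMSO arrays at background and on a probe that was tested only through G-1 1 µM 72 h. Normexp gave 1.20 for CSF2 and 0.65 for IL1B, both past the test. Both comparisons use the same 1 µM arrays. The interaction of G-1 IC50 with duration passed for 0 members, beside 0.00871% of all probes, with 1 member at an unadjusted p under 0.05, as for 4.09% of all probes.

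The order of group means was the same at its top for CSF2, IL11, IL1B, CXCL2 and CXCL3, with G-1 1 µM 72 h first and G-1 1 µM 24 h second, whereas LIF and CCL2 had G-1 1 µM 24 h first and G-1 1 µM 72 h second, 2 neighbors that did not differ. IL6 had G-1 1 µM 72 h first and G-1 IC50 72 h second. For IL1B the next 2 groups, G-1 1 µM 24 h and DMSO 24 h, overlapped. Over the 24 arrays, pairs of the 8 genes correlated between 0.12 (IL6 with CCL2) and 0.99 (CXCL2 with CXCL3), with a median of 0.77, and deviations from the group means between -0.10 and 0.93, with a median of 0.49. The points of these correlations share groups and arrays. LIF and CCL2 deviated from their group means together (r = 0.89), as did LIF and IL11 (r = 0.84).

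By the Pearson correlation of log2 levels over the 24 arrays, among tested genes with a symbol, the 3 patterns most like that of CXCL2 were those of UAP1 (0.99), RDUR (0.99) and PLAUR, the urokinase receptor (0.99). For CXCL3 they were LINC02104, RIPK2 and UAP1 (each 0.99), and for IL11 CFAP20 (0.99), CHEK1 (0.99) and UAP1 (0.98). LIF was closest to TUFT1 (0.97), EDN1, the endothelin-1 gene (0.95), and ELF4 (0.94), and CCL2 to TUFT1 (0.96), KRT81 (0.93) and PLK2 (0.92). CSF2 was closest to POLE3, SNHG1 and CSTF2 (each 0.97), but it was well above background on only 7 of 24 arrays, all of them 1 µM. IL1B was closest to SPANXB1, ZNF101 and VEGFC (each 0.94), and IL6 to ERO1A (0.91), OSMR, the oncostatin M receptor (0.91), and ULBP2 (0.91). TUFT1 thus stood first for both LIF and CCL2, and UAP1 among the first 3 for CXCL2, CXCL3 and IL11.

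Some receptors of these cytokines were detected in U251 cells and others were not. Of the 15 genes on the list of receptors and decoys, 5 were tested. IL6ST, the shared gp130 subunit, IL6R, IL1R1 and IL1RAP were well above background on all 24 arrays and LIFR on 23. CXCR1, CXCR2, CCR2, CSF2RB, IL11RA, the decoys IL1R2, ACKR1 and ACKR2 were on none, IL1RN, the natural IL-1 antagonist, was on 1, and CSF2RA had no matched probe. IL6R fell in G-1 1 µM 72 h by 1.17 ± 0.23 (adjusted p = 2.0e-04, limma). LIFR (-0.45, adjusted p = 0.080, limma), IL1R1 (-0.43, adjusted p = 0.050, limma), IL1RAP (0.29) and IL6ST (0.06) did not pass.

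NF-kappaB pathway genes mostly rose at 1 µM 72 h, by under 2-fold. Of 24 tested, 9 rose and 1 fell at 1 µM 24 h, and 17 rose and 1 fell at 72 h, with medians of 0.14 and 0.42. Of all 14235 tested genes with a symbol, 2850 rose and 1501 fell at 24 h, and 5006 rose and 4410 fell at 72 h. These shares stand beside the counts of every list below. Those over 2-fold at 72 h were TNFAIP3, which encodes the inhibitor A20 (1.68 ± 0.14, adjusted p = 2.2e-09, limma), and BIRC3, an antiapoptotic ubiquitin ligase (1.44 ± 0.17, adjusted p = 2.8e-07, limma). The gene that fell was NFKBIA, which encodes the inhibitor IkappaB-alpha and is itself a target of NF-kappaB (-0.55 ± 0.10 at both durations, adjusted p = 7.5e-04 and 1.1e-04, limma). The subunit genes NFKB1 (0.59), NFKB2 (0.65), RELA (0.39) and RELB (0.44) rose at 72 h, and REL did not pass.

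Among 10 AP-1 and C/EBP transcription factor genes, 5 rose and 1 fell at 24 h, and 3 rose and 4 fell at 72 h. Of all 14235 tested genes, 2850 rose and 1501 fell at 24 h, and 5006 rose and 4410 fell at 72 h. The AP-1 and C/EBP counts at 72 h were near these shares and are no result about the list. FOSL1, which encodes FRA1, rose at 24 h (1.32 ± 0.18) and at 72 h (2.01 ± 0.18), and FOSB was 0.83 ± 0.24 and 1.05 ± 0.24 higher. FOS rose at 24 h (1.11 ± 0.21) and did not pass at 72 h. In DMSO alone, FOS was over 2-fold higher at 72 h than at 24 h, a difference that passed. At 72 h FOSL2 fell by 1.07 ± 0.08 and CEBPD fell by 1.25 ± 0.07. Of the 9 tested genes of gp130 and STAT3 signalling, 4 rose and 0 fell at 24 h and 6 rose and 1 fell at 72 h, all by less than 2-fold, with STAT3 at 0.46 and SOCS1, a feedback inhibitor, at 0.53, and JAK1 lower by 0.34 at 72 h. SOCS3 had no matched probe.

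Of 10 genes for factors that bind AU-rich mRNAs or regulate their decay, 3 rose and 1 fell at 24 h and 6 rose and 2 fell at 72 h. Of all 14235 tested genes, 2850 rose and 1501 fell at 24 h, and 5006 rose and 4410 fell at 72 h. ZC3H12A, which encodes the endonuclease regnase-1 that cuts IL6 mRNA, rose by 0.88 ± 0.09 and ELAVL1, which encodes the stabilizing protein HuR, by 0.79 ± 0.10 at 72 h, while ZFP36L1 and ZFP36L2 were lower by 0.26 and 0.42. Of 7 genes of IL-1 processing, 4 were tested, with 1 higher and 1 lower at 24 h and 1 higher and 2 lower at 72 h. IL18 rose by 1.04 ± 0.09, CASP1, which encodes the enzyme that activates IL-1 beta, fell by 0.38 ± 0.13 and GSDMD fell by 0.32 ± 0.10. NLRP1, NLRP3 and PYCARD were on no array well above background.

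Of 49 other secreted factors of the secretory phenotype, 25 were not tested, 19 of them being well above background on no array. Among the 24 tested, 6 rose and 1 fell at 24 h, and 11 rose and 7 fell at 72 h, with a median of 0.05 at 72 h. Of all 14235 tested genes, 2850 rose and 1501 fell at 24 h, and 5006 rose and 4410 fell at 72 h. MMP1 and MMP3, matrix metalloproteinases, rose at 72 h. MMP1 was at least 14.8-fold above a DMSO group with no array well above background (adjusted p = 2.2e-11, limma). This limit and p-value rest on DMSO signals at background, and a normexp value for MMP1 is not reported here. MMP3 was higher by 3.29 ± 0.34. In DMSO alone MMP3 fell by over 2-fold from 24 h to 72 h, and within 1 µM it did not rise by over 2-fold. IGFBP3 (2.27 ± 0.21) and STC1 (1.33 ± 0.15) also rose at 72 h. CXCL14, another chemokine gene, fell by 1.21 ± 0.16. At the IC50 dose, IGFBP6 (-0.69 ± 0.09) and PLAU (-0.47 ± 0.08) of this list fell at 72 h, where 68 of the 14235 genes did. No gene of any of the 8 lists passed at 24 h.

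Of 7 tested senescence markers, 1 rose and 1 fell at 24 h, and 3 rose and 2 fell at 72 h. Of all 14235 tested genes, 2850 rose and 1501 fell at 24 h, and 5006 rose and 4410 fell at 72 h. The counts of the markers were near these shares and are no result about the list. CDKN1A, which encodes the cell cycle inhibitor p21, rose by 0.68 ± 0.17 at 72 h, whereas CDKN2A fell by 1.18 ± 0.20 and GLB1, the gene of the beta-galactosidase used as a senescence stain, fell by 0.82 ± 0.07. LMNB1 and MKI67 did not pass (0.05 and 0.29).

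**Figure D4:**
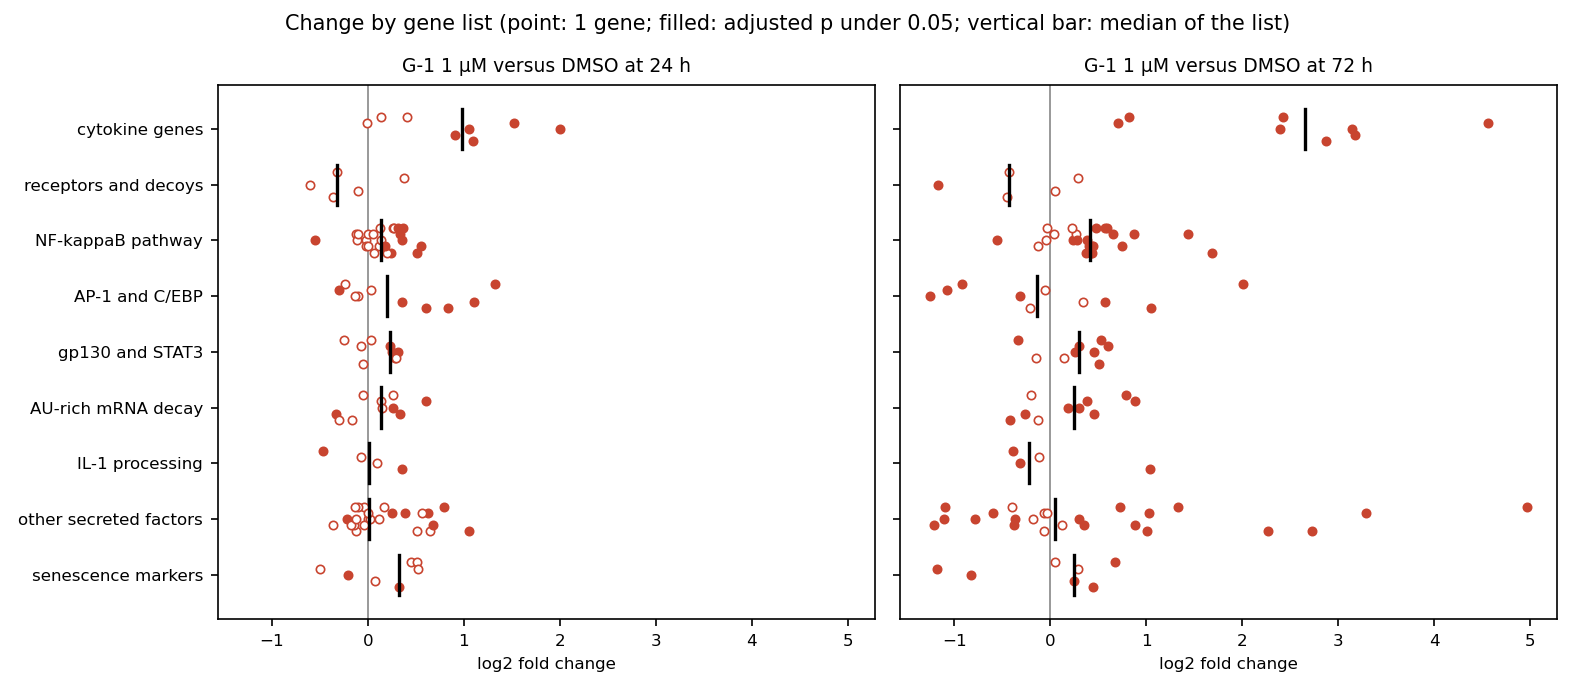
Differences of G-1 1 µM from DMSO (log2 fold change) for the 8 tested cytokine genes and the tested genes of 8 other lists at 24 h and 72 h. Each point is 1 gene, filled points had an adjusted p under 0.05, and vertical bars are list medians. The median of the cytokine genes is 0.98 at 24 h and 2.65 at 72 h, and that of the other secreted factors 0.01 and 0.05.

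The arrays carried the markers of an astroglial glioma line. Of 10 such markers, 9 were well above background on all 24 arrays, and AQP4 on none. Of these 9, 7 had a lower mean in G-1 1 µM 72 h than in DMSO 72 h, with GFAP at 4.01 and 6.73 and S100B at 2.62 and 4.59, and TNC (3.81 and 2.39) and FABP7 (6.01 and 5.22) had a higher one. The 4 lymphocyte markers were above background on no array. Of the 6 macrophage and microglia markers with a probe, PTPRC, ITGAM and AIF1 were on none, TYROBP was on 5, none of them 1 µM (mean -4.22 in G-1 1 µM 72 h and -2.83 in DMSO 72 h), and CD14 and CSF1R were on all 24. The summed level of the list was 0.06 to 0.40 in DMSO 72 h and 0.88 to 1.16 in G-1 1 µM 72 h, where CD14 was higher (mean level -1.22 and 0.01). Of the endothelial markers, PECAM1 was on no array, VWF on 23 (mean -0.42 in DMSO 72 h and -2.12 in G-1 1 µM 72 h) and CDH5 on 16 (-2.37 and -3.13), and the 3 neuronal markers RBFOX3, SNAP25 and SYT1 were on all 24. In RNA of a whole culture, a level per cell and a share of cells cannot be told apart, and the part of these markers in the results was not tested.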

How the data were processed

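RNA of 24 cultures was hybridized to one-colour Agilent arrays, and per the file headers each scanner file holds intensity values from Agilent Feature Extraction 12.1.1.1 (10.7.3.1 in the labels), where the processed signal is background-subtracted. The authors also deposited a log2 table, which matched the signals below after centring each probe on its median and served as an alternative. From the deposited intensities, control spots and outlier spots were left out, spots of a probe were averaged as log2, and each array's 75th percentile was subtracted. The 22970 of 58118 probes for which some group had all 4 arrays well above background were fitted with limma 3.58.1 in R 4.3.3, with 6 group means over 24 arrays and Benjamini-Hochberg adjustment over all 22970. Each gene is given by its brightest probe. Array number and signal over background limit the precision, and groups came from the titles. Tested on simulated data for 1 µM against DMSO at 72 h, with 200 of 22970 probes changed, the fit recovered 93% at a log2 change of 1 and 98% at 2. The simulated noise was independent and normal, with no slide effect, replicate correlation or background floor. These rates therefore do not carry over to the comparison itself.

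The 10 members, the gene lists and the rule for named genes were chosen with earlier results of these data known. The rule named all members, the 3 genes most correlated with each tested member, up to 6 genes of each list past the test and over 2-fold against DMSO, the receptors and the cell type markers. The other list genes named, all of them under 2-fold (NFKBIA, the NF-kappaB subunits, the named genes of gp130 signalling and of mRNA decay, CASP1, GSDMD, IGFBP6, PLAU, CDKN1A, GLB1, LMNB1 and MKI67), were chosen after their values were seen. Some list genes that this rule covers are not reported here. Motif letters were chosen after the sequences were seen. Same-numbered replicates deviated together, with every correlation over 0.1, for 1 µM against DMSO at 24 h (0.17 to 0.28) and against G-1 IC50 at 24 h (0.20 to 0.31), and a block of replicate number within each duration, the comparison of 1 µM at 72 h and 24 h and the values within slides were added after seeing the data. The other alternatives were normexp on the median signals with an offset of 50, quantile normalization, the 50th percentile, other filters, an intensity trend, arrays of 1 comparison, blocks by replicate or slide, the methods' t-test, the deposited table and leaving out each array.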

Additional observations from a re-analysis of the deposited data

Results flagged for a closer look

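In DMSO 24 h, replicate 4 of CSF2 (-3.20) stood apart from the other 3 arrays (-4.10 to -3.99), with a gap of 0.879 of the group's range. It was 1 of 48 groups of 4 arrays examined this way, chance gives about 1 in 20, and all 4 of these arrays were below the background threshold.

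The effect of 1 µM against DMSO differed between 24 h and 72 h by the interaction test for CSF2 (3.04), IL6 (0.72), IL1B (2.29), IL11 (1.78), CXCL2 (2.09) and CXCL3 (2.27), in log2 units with the larger effect at 72 h.

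Probes left out of the tests gave signal well above background in 1 µM and in no DMSO array. The dimmer LIF probe did so on 3 arrays of 1 µM 24 h and 2 of 1 µM 72 h, the brighter CXCL1 probe on 3 arrays of 1 µM 72 h and the brighter CXCL8 probe on 3 arrays of 1 µM 72 h.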

How the results depend on the processing

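Of the values of the tested members under all alternatives, 1694 stayed on their side of the threshold, 17 gained the call and 21 lost it. Of the 1694, 45 changed sign, all of them differences that did not pass in either fit. Counts are of probes past an adjusted p of 0.05 and 2-fold, with main counts, in this order, for IC50 24 h, IC50 72 h, 1 µM 24 h and 1 µM 72 h against DMSO, 1 µM against IC50 at 24 h and 72 h, DMSO 72 h against 24 h, the 1 µM interaction, the IC50 interaction and 1 µM 72 h against 24 h, of 10, 22, 608, 3131, 599, 2953, 34, 1437, 0 and 1173, and of list genes past the adjusted p for the first 4 of 0, 2, 35 and 67. Normexp gave 4, 3, 72, 1007, 109, 946, 5, 390, 2 and 298. No filter gave 1815 for 1 µM 24 h, 2976 and 5475 against IC50, and 0 members for DMSO, where the main count was 1. Probes detected on all 24 arrays gave 10 for IC50 72 h, 194 and 1849 for 1 µM, 209 and 1722 against IC50, 9 for DMSO, 841 and 3 for the interactions, 614 for 1 µM 72 h against 24 h and 1 list gene for IC50 24 h. The 50th percentile gave 18 probes and 0 members for DMSO and 1 and 15 list genes for IC50 72 h and 1 µM 24 h, and quantile normalization 0 members for DMSO. The intensity trend gave 1 and 4 list genes for IC50 and 3 probes for the IC50 interaction. Arrays of 1 comparison gave 2 for IC50 24 h, 1 list gene for IC50 72 h, 11 probes and 0 members for DMSO and 3 for the IC50 interaction. The slide as a fixed block gave 2 for the IC50 interaction and as a random block 23 list genes for 1 µM 24 h.

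The replicate block gave 3 and 5 list genes for IC50, 2 members for DMSO and 5 probes for the IC50 interaction, and the block within each duration gave 3 and 10 list genes and 8 probes for that interaction. In the comparisons other than 1 µM at 24 h against DMSO or IC50, same-numbered arrays correlated between -0.16 and 0.48. The best match had the same number for 3 of 4 replicates for IC50 against DMSO at 72 h. It did so for 3 of 4 for 1 µM against DMSO at 24 h and for 2 of 4 for 1 µM against IC50 at 24 h. Whether the numbers pair was thus not settled. The block within each duration changed the call of CCL2 as given above and no other call of a member. The methods' t-test at an unadjusted p gave 20 probes and 10 list genes for IC50 24 h, 40, 2 members and 20 list genes for IC50 72 h, and 57 and 5 members for DMSO. After Benjamini-Hochberg it gave 0 and 4 probes for IC50 with 0 list genes at 72 h, 366 and 18 list genes for 1 µM 24 h, 355 and 3 members for 1 µM against IC50 24 h, and 5 probes and 0 members for DMSO.

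Leaving out 1 array gave ranges, in the order above, of 4 to 11, 19 to 23, 551 to 691, 3086 to 3213, 516 to 660, 2795 to 3068, 25 to 39, 1255 to 1558, 0 to 1 and 1046 to 1299. List genes ranged from 0 to 2, 2 to 3, 21 to 39 and 64 to 67. Members ranged from 5 to 6 for 1 µM 24 h and for 1 µM against IC50 at 24 h, and from 0 to 1 for DMSO. Signal over background limits CXCL1 and CXCL8, and the log2 differences of CSF2, IL1B and CXCL3 depend on the background correction.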

Other observations

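The fit without a filter on dim probes gave values for both probes of the untested chemokines. By its brighter probe CXCL8 was 1.61 higher in 1 µM than in DMSO at 24 h (adjusted p = 0.0025, limma) and 2.91 at 72 h (adjusted p = 2.4e-07, limma), and by its dimmer one 0.44 and 0.20, which did not pass. By its brighter probe CXCL1 was 2.09 higher at 72 h (adjusted p = 7.0e-05, limma) and 0.23 at 24 h, which did not pass, and by its dimmer one 0.63 (adjusted p = 0.048, limma) and 0.89 (adjusted p = 0.011, limma). The DMSO arrays of all 4 probes, and the 24 h arrays of 1 µM, were below the background threshold, so these log2 differences are of signals that were not measured on one or both sides.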
